A study of Homo sapiens with 9 samples.

Results

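The genes described here are 10 immediate early genes of the AP-1 and EGR group, taken by symbol from the primary chromosome rows of a table of 63856 listed genes. They are FOS, FOSB and FOSL1, JUN and JUNB, ATF3, EGR1, IER2, IER3 and DUSP1. Their transcripts were measured by RNA-seq of rRNA-depleted total RNA in 9 samples of TCam-2, an established human cell line from a testicular seminoma, a germ cell tumour. The wild type (WT, n = 3) was not modified. The negative control (NC, n = 3) was transfected with a px335_G2P vector whose gRNAs are nonspecific for the human genome. The cells with the activated ESX1 gene (ESX1, n = 3) received 3 px335_G2P vectors with gRNAs for ESX1, an X-linked homeobox gene, together with PB-TRE-dCas9-VPR, a doxycycline-inducible nuclease-dead Cas9 fused to transcriptional activators. Transfected cells were selected with puromycin and doxycycline for 72 h, and cells without the vector remained in them, so each transfected library is a mixture. Whether the NC vector mix also held PB-TRE-dCas9-VPR is not stated in the methods. Transfection and both drugs separate NC and ESX1 from WT, and their effects cannot be told apart in the comparisons with WT.

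Immediate early genes are transcribed within minutes of a stimulus, without new protein synthesis, when kinases of the MAP kinase cascades phosphorylate factors such as ELK1, SRF and CREB that already sit at their promoters. FOS and JUN family proteins pair through leucine zippers to form AP-1, which binds its sites in growth, stress and invasion genes. JUN proteins can also pair with each other, and FOS proteins cannot. ATF3 is a stress-induced partner of the JUN proteins, EGR1 is a zinc finger factor that binds GC-rich sites, IER2 and IER3 are short-lived nuclear and survival-related proteins, and DUSP1 is a phosphatase that switches off p38 and JNK and so limits the response. Their transcripts decay quickly, and they respond to serum, handling, DNA transfer and drugs in most cultured cells.

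The sequence around transcription starts of these genes was searched for sites that such signals can act on. RefSeq promoter windows (GRCh38.p14, 250 bases before to 50 after a start) were matched for 8 of the 10 genes, in 9 windows, since ATF3 has 2. FOSL1 and IER3 had none. The stretches below show, in capitals, most of the matched motifs of the members, printed 5′ to 3′ on the strand of the gene. These motifs are TGACG (or CGTCA, its reverse complement), TGACGTCA (the cAMP response element, which contains TGACG on both strands), TGACATCA (the site named after the JUN promoter), TATAAA (the TATA box) and the CArG box, the binding site of SRF.
FOS (plus strand, chr14:75278714-75278773): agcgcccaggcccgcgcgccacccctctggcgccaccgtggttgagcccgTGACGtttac
FOSB (plus strand, chr19:45467916-45467975): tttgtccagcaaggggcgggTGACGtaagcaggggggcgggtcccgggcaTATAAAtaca
JUN (minus strand, chr1:58784096-58784125): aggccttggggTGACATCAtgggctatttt
JUNB (plus strand, chr19:12791341-12791470): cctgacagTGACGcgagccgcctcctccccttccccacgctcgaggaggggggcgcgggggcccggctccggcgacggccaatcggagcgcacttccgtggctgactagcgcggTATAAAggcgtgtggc
ATF3 (plus strand, chr1:212565254-212565313): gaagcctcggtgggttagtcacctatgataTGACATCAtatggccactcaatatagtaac
EGR1 (plus strand, chr5:138465334-138465423): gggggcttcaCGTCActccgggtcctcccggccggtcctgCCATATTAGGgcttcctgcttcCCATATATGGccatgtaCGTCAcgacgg
IER2 (plus strand, chr19:13150259-13150288): cacccccgccccCGTCAcgccaccatcgag
DUSP1 (minus strand, chr5:172771216-172771375): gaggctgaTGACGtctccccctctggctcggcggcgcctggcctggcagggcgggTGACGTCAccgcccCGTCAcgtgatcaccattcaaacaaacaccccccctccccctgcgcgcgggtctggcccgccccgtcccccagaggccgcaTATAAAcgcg
On either strand, TGACG was present in the windows of 7 of the 8 genes and in 24.6% of all 35116 windows. The JUN promoter site TGACATCA was shared by JUN and ATF3, against 2.61% of all windows. Matches outside the printed stretches were a TGACG of JUN, the TATAAA of FOS and a TATAAA in the other ATF3 window, at -230 to -225. Within the members' windows, CArG boxes were found only in EGR1, at positions -105 to -96 and -83 to -74 from its start. Of all windows, 1.29% held 1 or more. Sites farther from the starts were not searched. The full TGACGTCA was found in DUSP1, at -125 to -118, against 1.85% of windows. TATAAA was present in 5 of the 8 genes and in 11.5% of all windows. The AP-1 sequence TGACTCA, whose reverse complement is TGAGTCA, was in 0 of the members' windows and 4.95% of all windows, and the EGR sequences GCGGGGGCG and GCGTGGGCG were likewise in 0 of them, against 5.07% and 0.795%. The printed stretches of JUN and IER2 lie inside exons that the authors' annotation lists. A match of letters does not show that a factor was bound.

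The libraries held 5212804 to 10644408 counted read pairs, with the smallest total in ESX1 replicate 3, and the correlation of log2 CPM between replicates ranged from 0.967 to 0.980 across genes. Mitochondrially encoded genes took 17.0% to 18.3% of counts in WT, 14.5% to 15.3% in NC and 19.2% to 19.9% in ESX1, and the part of this difference in the results was not tested. ESX1 itself had 28 to 33 counts in WT, 27 to 35 in NC and 170 to 562 in the ESX1 group. All 8 seminoma markers (POU5F1, NANOG, SOX17, TFAP2C, PRDM1, KIT, PDPN and ALPL) were detected in every group. Their summed level was 3516 to 4278 CPM in WT, 2732 to 2933 in NC and 1550 to 1867 in ESX1, and the part of this difference in the results that follow was not tested. Of the 8, 6 were downregulated in ESX1 against WT, 1 (KIT) in NC against WT and 1 (NANOG) in ESX1 against NC. Summed markers of other cell types reached at most 0.204 CPM for leukocytes (3 genes), 2.04 for endothelium (2 genes), 5.90 for later germ cells (5 genes) and 21.8 for Sertoli and Leydig cells (4 genes) in any library, and those of fibroblasts (4 genes, nearly all from COL1A1 and COL1A2) were at 108.1 to 336.7. In bulk RNA, fewer cells with a transcript and less transcript per cell cannot be told apart.

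Levels are given as counts per 1000000 read pairs of the TMM-scaled library (normalized CPM). A gene passed, and is said to be upregulated or downregulated, at a Benjamini-Hochberg adjusted p below 0.05 over all 18452 tested genes and a fold change of at least 2 in edgeR's quasi-likelihood test. All 10 members passed the filter on low counts. FOSL1, with 22, 6 and 9 counts in WT, passed it through the transfected libraries, in which it was higher. Its calls against WT therefore followed in part from that filter. Both comparisons with WT share the WT libraries, and 1 of these stood apart in several members. WT replicate 1 held 18.9 normalized CPM of FOS, against 95.2 and 82.7 in WT replicates 2 and 3. Each member's result against WT is therefore given with and without it.

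Compared with WT, both transfected groups had less FOS, the transcript of the classic AP-1 subunit, and more JUN, that of its partner. JUNB was lower in NC, ATF3, FOSL1 and DUSP1 were higher in the cells with activated ESX1, and no member passed the test between ESX1 and NC. FOSL1 was also 1.12 higher in NC than in WT (log2), without passing, and differed by 0.36 between ESX1 and NC. In NC against WT, 3 of the 10 members passed, where 5.27% of all tested genes did. JUN was upregulated (3.12% of tested genes were higher) and FOS and JUNB were downregulated (2.15% were lower). In ESX1 against WT, 5 of the 10 passed, with JUN, ATF3, FOSL1 and DUSP1 upregulated and FOS downregulated, against 11.5% of all tested genes (6.78% higher and 4.77% lower). In ESX1 against NC, 0 of the 10 passed under edgeR's quasi-likelihood model, DESeq2 and limma alike, where 1.78% of all tested genes passed with edgeR. At an unadjusted p below 0.05 there were 4 (FOSB, JUN, ATF3 and DUSP1), against 16.0% of tested genes. The median log2 fold change of the 10 genes was -0.45 in NC against WT, -0.33 in ESX1 against WT and 0.54 in ESX1 against NC, where the medians of all tested genes were 0.01, 0.01 and 0.00.

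**Figure D1:**
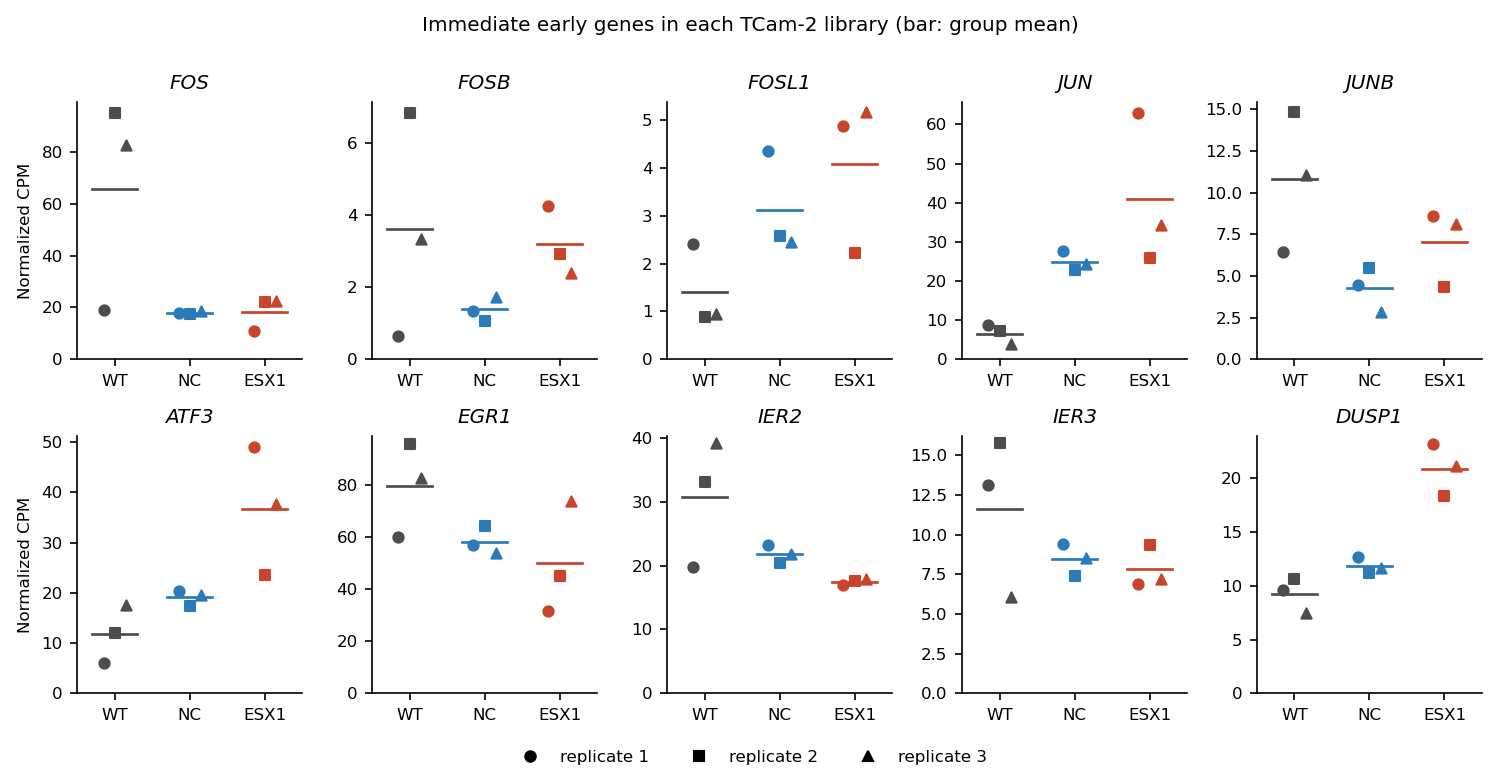
Normalized CPM (vertical axes, from 0) of the 10 genes in each library, with groups on the horizontal axes, symbols for replicate numbers and bars for group means (n = 3). FOS was high only in WT replicates 2 and 3 (95.2 and 82.7), JUN was below 9 in WT and above 22 in every transfected library, and DUSP1 was above 18 only in the ESX1 libraries.

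The ranges of the groups did not overlap for FOSL1, JUN, DUSP1, FOS and JUNB in NC against WT, which is 5 of 10 members beside 37.6% of tested genes. In ESX1 against WT this held for JUN, ATF3, DUSP1 and IER2, beside 40.3% of tested genes. In ESX1 against NC it held for FOSB, ATF3, DUSP1 and IER2, beside 22.6%. Of the members, only DUSP1 had ranges apart in all 3 comparisons, in the order WT, NC, ESX1. The share of all tested genes with ranges apart in all 3 was not computed.

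Among the FOS subunits, FOS is the classic immediate early partner of JUN and the most abundant FOS family transcript of unmodified cells here. FOS was at 18.9, 95.2 and 82.7 normalized CPM in WT replicates 1, 2 and 3, at 17.7, 17.4 and 18.5 in NC and at 10.7, 21.9 and 22.5 in ESX1. The first WT library lay just above the NC libraries and within the ESX1 range, so the high level of WT came from its other libraries. The FOS transcript fell by 1.87 ± 0.39 (log2, SE) in NC against WT, with an adjusted p of 0.0035 (edgeR quasi-likelihood). In ESX1 against WT it fell by 1.84 ± 0.40, with an adjusted p of 0.00214 in the same test. Without WT replicate 1 the differences were -2.32 and -2.30, and FOS passed in both comparisons with any 1 of the 9 libraries left out. Against NC, FOS differed in ESX1 by 0.03, with a 95% interval from -0.83 to 0.88, and true differences inside that interval remain compatible with these libraries.

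FOSB, whose protein can replace FOS in AP-1, was a low transcript with 6 to 47 counts per library. It was at 0.655, 6.85 and 3.34 normalized CPM in WT, at 1.35, 1.07 and 1.73 in NC and at 4.26, 2.92 and 2.40 in ESX1. WT replicate 1 was again the lowest of its group, and the 3 ESX1 libraries lay above the 3 NC libraries. The log2 differences were -1.34 ± 0.57 in NC against WT (adjusted p = 0.117), -0.12 ± 0.53 in ESX1 against WT (adjusted p = 0.895, and -0.63 without WT replicate 1) and 1.22 ± 0.57 in ESX1 against NC (adjusted p = 0.303), all from edgeR's quasi-likelihood test. Without WT replicate 1, FOSB passed in NC against WT, at -1.85 and an adjusted p of 0.0053 in that test.

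FOSL1 (FRA1) lacks the strong activation domain of FOS and is induced more slowly. Its counts were also low, from 6 to 48 per library. Levels were 2.40, 0.875 and 0.940 normalized CPM in WT, 4.35, 2.57 and 2.44 in NC and 4.87, 2.21 and 5.17 in ESX1. In contrast to FOS, the highest WT library was replicate 1. FOSL1 was upregulated in ESX1 against WT by 1.48 ± 0.46, with an adjusted p of 0.0232 (edgeR quasi-likelihood). This call was lost when WT replicate 2, WT replicate 3, ESX1 replicate 1 or ESX1 replicate 3 was left out (1.23 to 1.33, adjusted p 0.0802 to 0.0889), and without WT replicate 1 the difference was 2.11. The difference of 1.12 ± 0.46 in NC against WT did not pass (adjusted p = 0.108 in the same edgeR test), and was past the threshold without WT replicate 1 (1.76, adjusted p = 0.024). Between ESX1 and NC the value was 0.36 ± 0.42. Since FOSL1 passed the filter on low counts through the transfected libraries, its calls against WT are not independent of that filter.

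Of the JUN subunits, JUN is the main transactivating partner in AP-1 and autoregulates its own promoter. It was at 8.63, 7.29 and 3.76 normalized CPM in WT, at 27.6, 22.7 and 24.4 in NC and at 62.9, 25.8 and 34.4 in ESX1. Every transfected library was above every WT library, and ESX1 replicate 1 was the highest of all. JUN was upregulated by 1.93 ± 0.31 in NC against WT, a 3.82-fold rise with an adjusted p of 0.00045 (edgeR quasi-likelihood). In ESX1 against WT the rise was 2.66 ± 0.31, or 6.31-fold, with an adjusted p of 7.41e-06 in the same test. Without WT replicate 1 these were 2.21 and 2.93, and both calls held with each library left out in turn. ESX1 and NC differed by 0.72 ± 0.27, which did not pass (adjusted p = 0.173, edgeR quasi-likelihood), and the difference was 0.26 without ESX1 replicate 1.

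JUNB is a weaker transactivator than JUN and can restrain it. It was at 6.44, 14.9 and 11.1 normalized CPM in WT, at 4.46, 5.47 and 2.85 in NC and at 8.62, 4.33 and 8.13 in ESX1. The NC libraries were all below the WT libraries, and the ESX1 libraries overlapped both. JUNB was downregulated in NC, where it fell by 1.33 ± 0.34 against WT, with an adjusted p of 0.0118 (edgeR quasi-likelihood). That call was lost without WT replicate 2 (-1.05, adjusted p = 0.0761) and without NC replicate 3 (-1.10, adjusted p = 0.0703), and without WT replicate 1 the difference was -1.60. The values were -0.62 ± 0.33 in ESX1 against WT (-0.90 without WT replicate 1) and 0.71 ± 0.35 in ESX1 against NC, neither past the threshold. Of the JUNB exon bases, 14.2% lie in exons of HOOK2 on the opposite strand, and since strand was not used in counting, reads there could not be told apart.

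ATF3, a stress-induced factor of the ATF/CREB family, was at 6.005, 11.95 and 17.5 normalized CPM in WT, at 20.3, 17.5 and 19.6 in NC and at 49.1, 23.5 and 37.7 in ESX1. The ESX1 libraries were above all others. ATF3 was upregulated in ESX1 against WT by 1.63 ± 0.30, a 3.10-fold rise with an adjusted p of 0.000558 (edgeR quasi-likelihood), and by 1.29 without WT replicate 1. This call held with each of the 9 libraries left out in turn. Against NC the difference in ESX1 was 0.94 ± 0.28 with an adjusted p of 0.0751 in the same edgeR test, and among the fits that left out a library, ATF3 passed there only without ESX1 replicate 2 (1.18, adjusted p = 0.0153). In NC against WT it was 0.69 ± 0.30 (adjusted p = 0.123), 0.36 without WT replicate 1, and past the threshold only without WT replicate 3 (1.11, adjusted p = 0.0219).

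**Figure D2:**
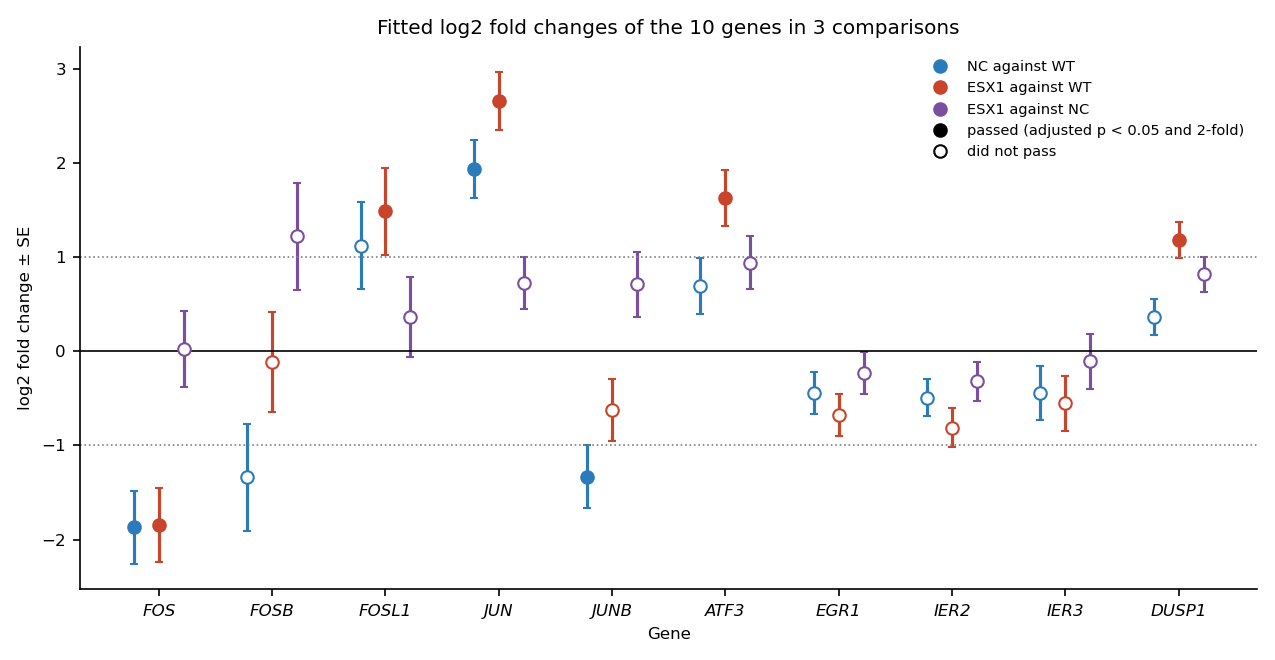
Fitted log2 fold changes (vertical axis, points with SE bars) of the 10 genes (horizontal axis) in the 3 comparisons, over 3 libraries per group, with filled points for those that passed and dotted lines at 2-fold. JUN had the largest rises (1.93 and 2.66 against WT) and FOS the largest falls (-1.87 and -1.84), and no point of ESX1 against NC is filled.

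EGR1, a zinc finger factor, had the highest mean level per length of the 10 genes in every group. It was at 59.8, 95.5 and 82.6 normalized CPM in WT, at 56.8, 64.0 and 53.6 in NC and at 31.7, 45.0 and 73.7 in ESX1. WT replicate 1 lay within the NC range, and ESX1 replicate 3 lay above all NC libraries. In ESX1 against WT the difference was -0.68 ± 0.22, with an adjusted p of 0.0303 (edgeR quasi-likelihood), which is less than 2-fold and did not pass, where 28.8% of all tested genes were under that p limit. It was -0.86 without WT replicate 1 and passed only without ESX1 replicate 3 (-1.02). The values of NC against WT (-0.45 ± 0.22, and -0.62 without WT replicate 1) and ESX1 against NC (-0.23 ± 0.22) did not pass.

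The related genes EGR2 and EGR3 were too low for the test. EGR2 had 1, 16 and 15 counts in WT, 4, 2 and 1 in NC and 0, 4 and 4 in ESX1. EGR3 had 1, 70 and 39 counts in WT, 3, 0 and 1 in NC and 5, 1 and 1 in ESX1. Both were high in the WT libraries in which FOS was high.

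IER2, a short-lived nuclear protein, was at 19.8, 33.1 and 39.2 normalized CPM in WT, at 23.2, 20.4 and 21.8 in NC and at 16.9, 17.6 and 17.9 in ESX1. The ESX1 libraries lay within 1 CPM of each other and below all other libraries. The difference of -0.81 ± 0.20 in ESX1 against WT had an adjusted p of 0.00655 (edgeR quasi-likelihood) but was below 2-fold, and it passed without WT replicate 1 (-1.06, adjusted p = 0.000134). Against NC it was -0.32 ± 0.21, and in NC against WT -0.49 ± 0.20 (-0.74 without WT replicate 1), neither past the threshold.

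IER3, a membrane-associated survival factor, did not pass in any comparison. It was at 13.1, 15.7 and 6.06 normalized CPM in WT, at 9.43, 7.40 and 8.55 in NC and at 6.89, 9.36 and 7.20 in ESX1, and all 3 groups overlapped. The fitted differences were -0.45 ± 0.28, -0.55 ± 0.29 and -0.11 ± 0.29 for NC against WT, ESX1 against WT and ESX1 against NC. Without WT replicate 1 the first 2 were -0.34 and -0.45. Exon bases shared with a gene on the opposite strand made up 30.8% of IER2 (CTC-250I14.6) and 26.5% of IER3 (XXbac-BPG252P9.10), so the counts of both are uncertain to that extent. For IER3 a further 5 rows on other scaffolds held 0 counts.

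DUSP1, the phosphatase that dephosphorylates p38 and JNK, had the smallest adjusted p of the 10 members in ESX1 against NC. The log2 differences of FOSB (1.22) and ATF3 (0.94) were larger there. DUSP1 was at 9.61, 10.6 and 7.42 normalized CPM in WT, at 12.6, 11.1 and 11.6 in NC and at 23.1, 18.3 and 21.1 in ESX1. All ESX1 libraries were above all NC libraries, which were above all WT libraries. In ESX1 against NC the difference was 0.82 ± 0.19 (1.76-fold, 95% interval of the log2 value 0.43 to 1.21), with an adjusted p of 0.0161 (edgeR quasi-likelihood), so DUSP1 missed the 2-fold limit but not the p limit. The share of all tested genes under that p limit was 4.25%. With each library left out in turn the difference ranged from 0.73 to 0.90, with an adjusted p up to 0.0951. DUSP1 was upregulated in ESX1 against WT by 1.18 ± 0.19 (adjusted p = 0.000205, edgeR quasi-likelihood), and by 1.21 without WT replicate 1. NC against WT gave 0.36 ± 0.19 (0.40 without WT replicate 1), which did not pass.

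**Figure D3:**
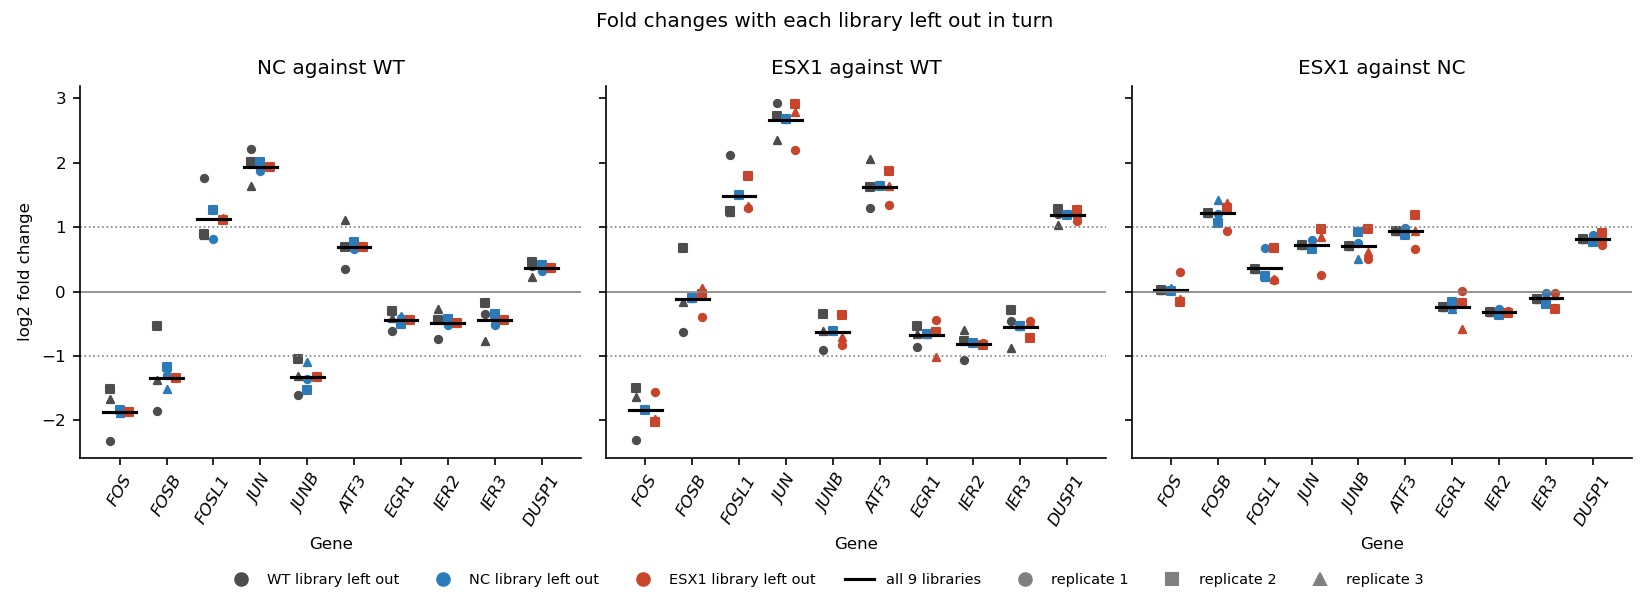
Log2 fold changes of the 10 genes (horizontal axes) in 3 comparisons, as fitted with all 9 libraries (black bars) and with each library left out in turn (points coloured by group, symbols for replicate number, dotted lines at 2-fold). FOS kept its direction against WT in all fits (-2.32 to -1.49), and leaving out WT replicate 2 moved FOSB in ESX1 against WT from -0.12 to 0.68.

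Per kilobase of exon, a scale on which genes can be set side by side, the order of the members differed between groups. EGR1 (25.3 ± 5.75 normalized CPM per kb, SD, n = 3) and FOS (20.3 ± 12.6) led in WT, and their ranges overlapped. In NC, EGR1 (18.5 ± 1.69) stood above all others, and IER2 (7.09 ± 0.46), JUN (7.04 ± 0.69), IER3 (6.24 ± 0.75), DUSP1 (5.84 ± 0.38) and FOS (5.52 ± 0.18) followed, each with a range that overlapped its neighbour's. In ESX1, EGR1 (16.0 ± 6.84), JUN (11.6 ± 5.49), DUSP1 (10.3 ± 1.19) and ATF3 (9.10 ± 3.17) were the highest, with ranges that overlapped. JUN ranked 8 of 10 in WT, 3 in NC and 2 in ESX1, while FOS ranked 2, 6 and 7. FOSB had the lowest mean in each group, and in WT its range overlapped that of FOSL1, which was below it in WT replicates 2 and 3.

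The makeup of the FOS family also differed between groups. FOSL2 (FRA2), a more stable subunit that is not one of the 10 genes, was at 18.01, 11.7 and 8.88 normalized CPM in WT, at 47.1, 39.1 and 45.0 in NC and at 91.5, 63.5 and 112.7 in ESX1. FOSL2 was upregulated by 1.76 ± 0.23 in NC against WT (adjusted p = 8.90e-05) and by 2.79 ± 0.23 in ESX1 against WT (adjusted p = 2.19e-07) by edgeR's quasi-likelihood test, and both calls held with each library left out. The rise of 1.02 ± 0.21 against NC (adjusted p = 0.00769 in that test) was lost without NC replicate 2, ESX1 replicate 1 or ESX1 replicate 3. Of the summed level per kb of the 4 FOS family genes, FOS made up 80.4% ± 17.8 (SD, n = 3) in WT, 40.9% ± 3.05 in NC and 27.7% ± 11.01 in ESX1. FOSL2 made up 11.8% ± 12.2, 45.1% ± 1.02 and 59.2% ± 7.42. In WT replicate 1 the FOS share was 59.9%, the lowest of its group and still above every transfected library (17.1% to 43.3%). The sum itself was 9.74 in WT replicate 1, 32.7 and 27.9 in the other WT libraries, 12.4 to 14.6 in NC and 17.3 to 25.9 in ESX1. No test was run on these shares.

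Within the JUN family, JUND, which is made constantly in most cells, held 77.6% ± 3.33 of the summed level per kb in WT, 78.9% ± 1.34 in NC and 71.0% ± 3.61 in ESX1 (SD, n = 3). The JUN share was 5.58% ± 2.72, 15.9% ± 1.58 and 21.6% ± 4.13, and that of JUNB was 16.8% ± 4.38, 5.23% ± 1.46 and 7.35% ± 0.81. JUN was thus below JUNB in all WT libraries and above it in all transfected libraries. JUND itself was 0.47 ± 0.17 higher in ESX1 than in WT on the log2 scale, which is under 2-fold. It was at 42.7 to 53.5 normalized CPM in WT, 63.2 to 67.2 in NC and 47.2 to 84.8 in ESX1.

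**Figure D4:**
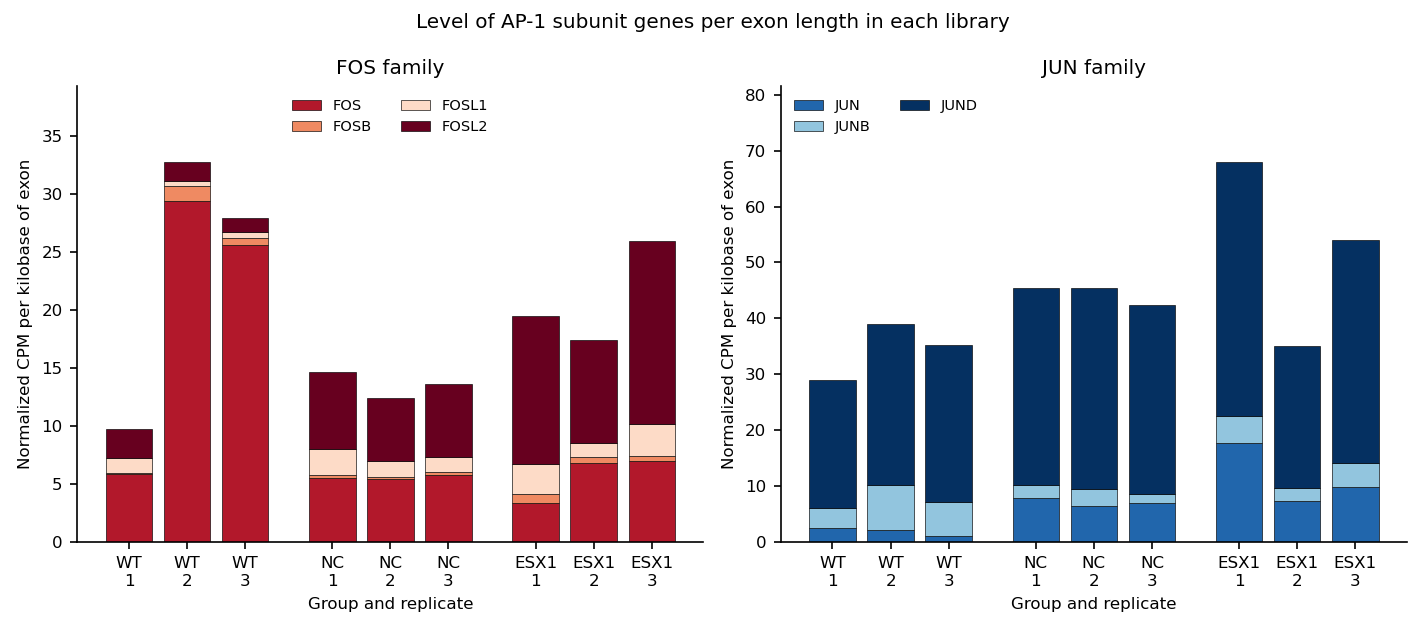
Stacked normalized CPM per kilobase of exon (vertical axes, from 0) of the FOS family (left) and JUN family (right) in each library (horizontal axes, group and replicate). FOS fills 59.9% to 91.6% of the FOS family bar in WT and FOSL2 fills 44.1% to 65.7% of it in the transfected libraries. JUND fills most of every JUN family bar.

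Of 16 other AP-1 and EGR family genes, 11 were tested, and upregulation passed for 2 in NC against WT, 3 in ESX1 against WT and 3 in ESX1 against NC, with 0 downregulated. In the same order, 5.27%, 11.5% and 1.78% of all tested genes passed. The genes of this list that passed included FOSL2 and, in both comparisons of ESX1, MAF. MAF had 1 to 4 counts in WT, 3 to 7 in NC and 22 to 26 in ESX1, and it passed the filter on low counts only through the ESX1 libraries, so that its call followed from that filter. The count of 3 in ESX1 against NC fell to 0 without NC replicate 2 or ESX1 replicate 3 and to 1 without NC replicate 3 or ESX1 replicate 1. The count in ESX1 against WT was 6 without WT replicate 1, but EGR2 and EGR3 entered that fit only through the WT libraries in which they were high, so their calls are no support for a fall. The count in NC against WT was 1 without WT replicate 2. With limma on the authors' log2 values the counts were 0 in ESX1 against NC and 1 in NC against WT.

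Other immediate early genes, which encode factors and regulators induced with FOS, split in direction. Of 30 listed, 28 were tested. In ESX1 against WT, 7 were upregulated and 3 downregulated, in NC against WT 1 and 1, and in ESX1 against NC 1 and 0. In the same order, 11.5%, 5.27% and 1.78% of all tested genes passed. GADD45A, a growth arrest and stress gene, was at 6.33, 3.50 and 4.91 normalized CPM in WT, at 19.9, 21.4 and 19.6 in NC and at 47.4, 22.6 and 39.3 in ESX1. It rose by 2.03 ± 0.26 in NC and by 2.86 ± 0.26 in ESX1 against WT. NR4A1, a nuclear receptor usually induced together with FOS and EGR1 and named here after its values were seen, was at 12.1, 29.3 and 35.5 in WT, at 11.8, 10.5 and 10.4 in NC and at 15.01, 9.05 and 12.4 in ESX1, with WT replicate 1 again within the range of the transfected libraries. NR4A1 fell by 1.23 in NC and by 1.08 in ESX1 against WT, and the second call was lost without WT replicate 2, WT replicate 3 or ESX1 replicate 2, the first without WT replicate 3. PHLDA1 averaged 79.4, 42.1 and 27.5 normalized CPM in WT, NC and ESX1. SGK1, a serum-induced kinase, averaged 543.4, 323.2 and 252.6. Neither passed in NC against WT. In ESX1 against WT, PHLDA1 fell by 1.52 and SGK1 by 1.10, the latter not without ESX1 replicate 3. BTG2 (1.11, lost without WT replicate 3), KLF10 (1.05, lost without WT replicate 2, WT replicate 3 or ESX1 replicate 3) and GADD45B (1.31) rose in that comparison, as did CSRNP1, ZFP36 (lost without WT replicate 1 or ESX1 replicate 3) and TIPARP (lost without WT replicate 3 or ESX1 replicate 2), which were named after their values were seen. GADD45B was the 1 gene of this list that passed in ESX1 against NC with edgeR (1.26 ± 0.21, adjusted p = 0.00154, edgeR quasi-likelihood), and that call was lost without ESX1 replicate 1. Without ESX1 replicate 2, 4 genes of the list passed there, and DESeq2 called 3. With limma on the authors' log2 values 5 passed in ESX1 against WT and 1 in NC against WT. In NC against WT, 4 passed without WT replicate 1 and 1 without WT replicate 3.

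Upstream of the members are the kinases and factors that carry the signal. All 26 listed genes were tested. With edgeR, 1 passed in NC against WT and 2 in ESX1 against WT, where 5.27% and 11.5% of all tested genes passed. Limma on the authors' log2 values called 0 in each. In ESX1 against NC, 0 passed with edgeR, DESeq2 and limma, where 1.78% of all tested genes passed with edgeR. At an unadjusted p below 0.05 in edgeR there were 3, beside 16.0% of tested genes. MAP2K6, a kinase that activates p38, fell by 1.12 in NC and by 1.03 in ESX1 against WT, and MAP2K3, which acts on the same target, rose by 1.07 in ESX1 against WT. Each of these calls was lost with some libraries left out, and 0 of the list passed in ESX1 against WT without WT replicate 3 or ESX1 replicate 1, and 1 without WT replicate 2 or ESX1 replicate 3. In NC against WT, 0 passed without WT replicate 3 or NC replicate 3, and 2 without WT replicate 1. SRF, the factor that binds the CArG boxes shown for EGR1, was at 41.7, 43.4 and 43.2 normalized CPM in WT, at 39.0, 45.8 and 46.4 in NC and at 97.7, 70.1 and 68.9 in ESX1. The ESX1 libraries were all above the others, by 0.86 ± 0.14 against NC (adjusted p = 0.0017) and 0.89 ± 0.14 against WT (adjusted p = 0.000187) by edgeR's quasi-likelihood test, both under 2-fold.

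Feedback regulators, phosphatases and adaptors that dampen the kinases, included the DUSP gene with the largest rise. Of 18 listed, 17 were tested, with 3 upregulated and 1 downregulated in NC against WT, 3 and 0 in ESX1 against WT and 1 and 1 in ESX1 against NC. In the same order, 5.27%, 11.5% and 1.78% of all tested genes passed. DUSP10, a phosphatase for p38 and JNK like DUSP1, was at 3.93, 2.04 and 0.627 normalized CPM in WT, at 12.2, 13.2 and 12.6 in NC and at 56.0, 63.8 and 47.1 in ESX1. It rose by 2.52 ± 0.33 in NC and by 4.66 ± 0.32 in ESX1 against WT, and by 2.14 ± 0.26 in ESX1 against NC (adjusted p = 9.57e-05, edgeR quasi-likelihood), and all 3 calls held with each library left out. The study selected DUSP10 on these same samples, so its rise is not independent evidence. DUSP8 (1.37 in NC, lost without WT replicate 2, WT replicate 3 or NC replicate 3, and 1.52 in ESX1, both against WT) and DUSP16 (1.21 in ESX1 against WT) also rose, and DUSP6 rose in NC against WT (1.49). DUSP5 fell by 1.05 in NC against WT, a call lost without any 1 of 5 libraries. SPRY4, an inhibitor of receptor kinase signalling, was 1.10 lower in ESX1 than in NC, a call lost without ESX1 replicate 3. Its mean level was 127.5 normalized CPM in WT, 239.4 in NC and 111.2 in ESX1. The NC libraries were above all others, and the WT and ESX1 ranges overlapped. The count in ESX1 against NC was 4 without ESX1 replicate 2 and 1 without ESX1 replicate 3, and that in NC against WT was 2 without WT replicate 3 or NC replicate 3 and 1 with limma on the authors' log2 values.

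**Figure D5:**
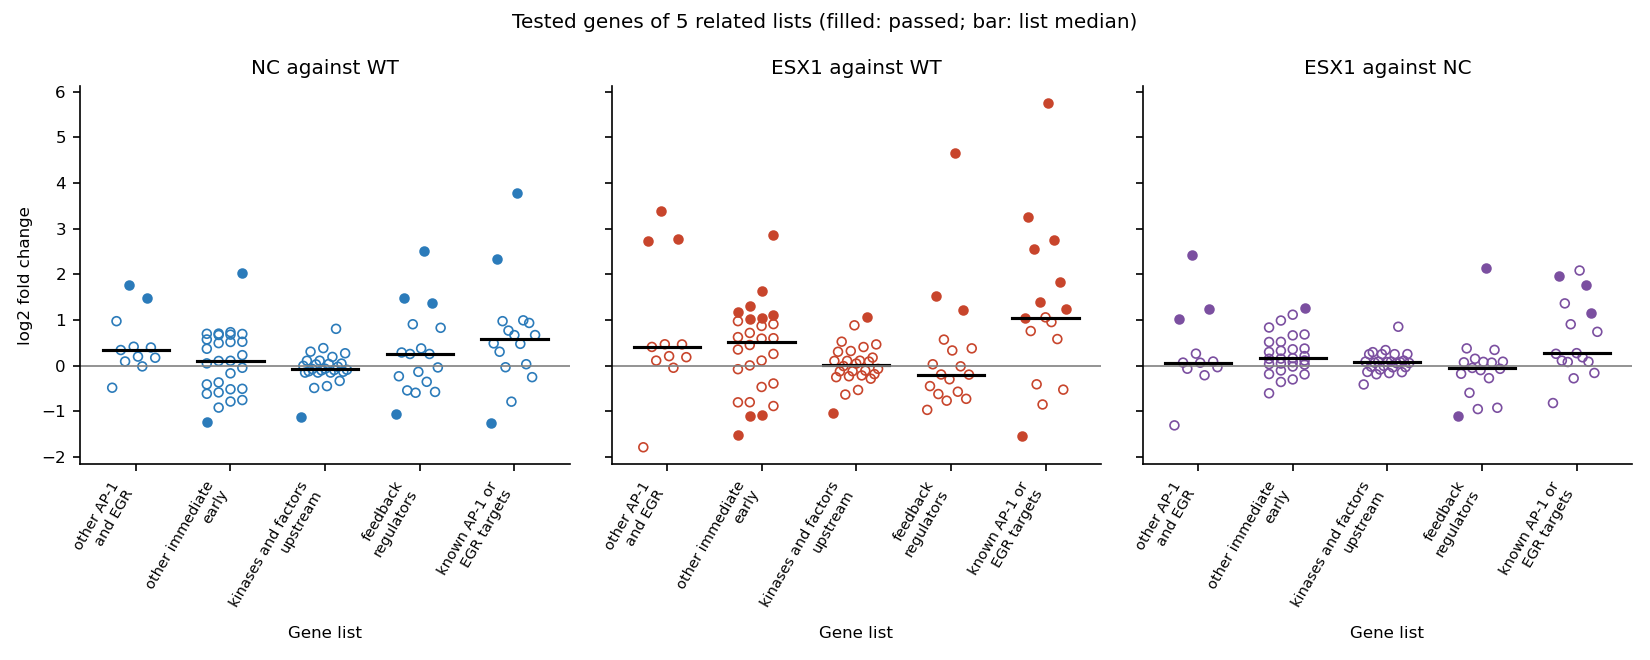
Log2 fold changes (vertical axis) of the tested genes of 5 related lists (horizontal axes) in the 3 comparisons, with filled points for genes that passed and bars for list medians. The largest values belong to HMOX1 (5.75) and DUSP10 (4.66) in ESX1 against WT, and the median of the known AP-1 or EGR targets was 1.06 there, 0.58 in NC against WT and 0.27 in ESX1 against NC.

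Genes known as targets of AP-1 or EGR had the largest share of genes upregulated with edgeR among the 5 lists in ESX1 against WT. Several of those calls depended on single libraries. Of 22 listed, 16 were tested, with 2 upregulated and 1 downregulated in NC against WT, 8 and 1 in ESX1 against WT and 3 and 0 in ESX1 against NC. Those not tested, MMP1, MMP3, MMP10, MMP13, IL6 and CXCL8, had at most 9 counts in any library. Among all tested genes, 3.12% were higher and 2.15% lower in NC against WT, and 6.78% and 4.77% in ESX1 against WT. In ESX1 against NC, 1.78% passed. HMOX1, the heme-degrading stress enzyme, was at 2.62, 1.31 and 0.940 normalized CPM in WT, at 24.4, 23.2 and 21.0 in NC and at 141.0, 47.4 and 77.8 in ESX1. It rose by 3.79 ± 0.40 in NC and by 5.75 ± 0.39 in ESX1 against WT, and by 1.96 ± 0.29 in ESX1 against NC (adjusted p = 0.000592, edgeR quasi-likelihood). CCND1, the cyclin of the G1 phase, rose by 1.83 in ESX1 against WT and by 1.15 against NC, and it too was selected by the study on these samples. EPHA2, a receptor kinase, rose by 2.35 in NC and by 3.26 in ESX1 against WT. PDGFA, a growth factor that EGR1 is known to activate, was at 121.8, 180.9 and 176.8 normalized CPM in WT, at 64.5, 58.2 and 77.6 in NC and at 78.0, 47.8 and 38.6 in ESX1. It fell by 1.26 ± 0.20 in NC and by 1.53 ± 0.21 in ESX1 against WT, while PLAUR, the urokinase receptor, rose by 1.24 in ESX1 against WT, a call lost without WT replicate 3 or ESX1 replicate 2. HMOX1, CCND1, EPHA2 and PDGFA kept each of the calls given here with every library left out. In ESX1 against WT the count of 9 was 6 without WT replicate 2 or WT replicate 3, and 10 without WT replicate 1. With limma on the authors' log2 values it was 6. CD44 (0 to 11 counts in WT, 0 to 9 in NC, 16 to 30 in ESX1) passed the filter only through the ESX1 libraries. Its call thus followed from that filter. CD44, VEGFA and PLAU, named after their values were seen, passed there in 3, 4 and 5 of the 9 fits leaving out a library.

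Across the 9 libraries, the tested genes whose log2 CPM most resembled that of FOS were ALG1L9P, GYPC, PSENEN, ENOX2 and TRIM24, with Pearson's r from 0.961 to 0.975 over 9 libraries. For EGR1 they were DHFR2, DPH6, YBX2, HNRNPR and SRSF8, with r from 0.956 to 0.980 over 9 libraries. These values are the highest of 18452 genes, the libraries share 3 groups, and no test belongs to them.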

How the data were processed

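Members, gene lists and alternatives were chosen with earlier results of these data known. Alignment by the authors used HISAT2 2.0.5 on GRCh38.p7, and gene counts came from featureCounts (1.5.2 in the file header, 1.6.5 in the submitters' processing notes) without its strand setting, on GENCODE 26 per the file headers. They deposited these counts unnormalized, and also values on a log2 scale normalized with DESeq2, whose transformation is not named. Both tables hold 63856 genes, and counts total 5212804 to 10644408 per library, which limits genes of few counts most. The methods call the samples biological replicates.

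Counts were filtered with filterByExpr (18452 genes), scaled by TMM and fitted as group means over 9 libraries with glmQLFit and glmQLFTest in edgeR 4.0.16 (R 4.3.3). A gene passed at a Benjamini-Hochberg adjusted p below 0.05 and a log2 fold change of at least 1 in size. The standard error is the log2 fold change divided by the root of F. For 2 genes of the lists, counted in the list totals, values are not reported here. Named were all members, up to 6 passing genes a list by adjusted p, genes a member result turns on, and the 5 genes most like FOS and EGR1. Alternatives used DESeq2 1.42.0, limma 3.58.1 on the deposited log2 values, other factors, filters, depths and thresholds, a replicate block, and each library left out. The test was also run on simulated counts. Changes were set only in the ESX1 group there and no library was made to deviate, so no result here rests on that run. Columns of no sample numbered 0.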

Additional observations from a re-analysis of the deposited data

How the results depend on the processing

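The members called in ESX1 against NC numbered 0 to 1 with each library left out (1, ATF3, without ESX1 replicate 2) and 1 (DUSP1) with no minimum fold. In NC against WT they numbered 2 to 5 (5 without WT replicate 1), and in ESX1 against WT 3 (JUN, ATF3 and FOS) with limma on the authors' log2 values, which lost FOSL1 and DUSP1 there (0.75 and 0.95) and JUNB in NC against WT (-0.87). FOS and JUN against WT and ATF3 in ESX1 against WT passed under every alternative run. FOSB passed in NC against WT with no filter beyond 1 count (-1.32, adjusted p = 0.0333, edgeR quasi-likelihood). FOSB and FOSL1 dropped out when at least 10 counts were required in every library. Of the values for single members, 0 reversed direction as a call.

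Over all genes, in the order ESX1 against NC, ESX1 against WT and NC against WT, 328, 2131 and 973 genes passed. With at least 10 counts in every library 200, 1192 and 563 passed, with limma on the log2 values 177, 937 and 338, and with no minimum fold 784, 5306 and 3158, while leaving out a library gave 209 to 434 in ESX1 against NC (209 without NC replicate 3). Upper-quartile scaling moved the median log2 fold change by 0.10 in ESX1 against WT, and split NC against WT into 710 higher and 311 lower in place of 576 and 397. The split with limma was 166 and 172, and with at least 10 counts in ESX1 against NC it was 102 and 98, not 199 and 129. With at least 10 counts in every library, and in the same order, the counts of other AP-1 and EGR genes were 1, 1 and 1, and those of known targets 1, 5 and 1. The causes were not tested.

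The replicate numbers are those of the sample titles, and some activated libraries carry other numbers in their names. Libraries with the same title number deviated together with correlations from -0.03 to 0.19. Pairs of unlike number were not computed beside them, so whether the numbers pair the samples was not settled. With the replicate number as a block, 358, 2109 and 1003 genes passed, and 0, 5 and 4 members, the added one being FOSL1 in NC against WT (1.196, adjusted p = 0.0496, edgeR quasi-likelihood). Depth limits FOSB, FOSL1 and MAF most.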
